A study of Mus musculus with 16 samples.

Results

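Neutrophils of bone marrow (BM) that held many transcripts of Il1b, the gene of the cytokine IL-1β, were followed in non–tumor-bearing mice, in tumor-bearing mice and in tumor-bearing mice given a CBP/P300 bromodomain inhibitor. Members were chosen cell by cell from counts of unique molecular identifiers (UMIs, each of which marks 1 captured RNA molecule). A member had over 200 and under 6000 detected genes and at most 10% mitochondrial UMIs. S100a8 and S100a9, 2 abundant neutrophil alarmin genes, made up at least 3% of its UMIs, and Camp, Ltf and Ngp, genes of secondary granules that are expressed in less mature neutrophils, made up under 1%. It held at least 5 UMIs of Il1b, 0 of the cell cycle genes Mki67 and Top2a, and at most 1 of the monocyte genes F13a1 and Ms4a6c. By this rule, 1810 of 31191 kept CD45+ BM cells were members (5.80%), and they made up 18.3% of the 9916 neutrophils that met every criterion other than the one on Il1b.

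Cells came from 6 libraries of sorted CD45+ Ter119- BM cells, 2 from each of 3 groups of female BALB/c mice with an intact Trp53 gene. WT mice, which the labels call controls, bore no tumor and were untreated. Mice of the vehicle and the IACS-70654 group carried 2208L, a Trp53-null mammary tumor grown from a piece transplanted into the mammary fat pad of mice aged 7 to 8 weeks, and were given vehicle or IACS-70654 for 7 days in cycles of 3 days on and 2 days off, as the series record has it (the text of the study gives a shorter course for these libraries), and were killed 24 hours after the last dose. IACS-70654 is a small molecule that binds the bromodomain of the histone acetyltransferases CBP and P300. Each library pooled 3 mice. Whether the 2 libraries of a group were separate pools is not stated, so p-values measure the spread between libraries, which may be technical. The ages of the WT mice are not given in the sources used here.

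IL-1β is made as an inactive precursor by activated myeloid cells and is cut to its active form by caspase-1 in inflammasomes that sensors such as NLRP3 and AIM2 assemble. It signals through IL1R1 and the shared chain IL1RAP, while the antagonist IL1RN and the decoy receptor IL1R2 oppose it. Neutrophils mature in BM in an order that their granule genes follow, with azurophil granule proteases transcribed early, secondary granule genes later and tertiary granule genes later still, and mature cells carry the receptors CSF3R and CXCR2 that govern their survival and release. High Il1b is among the markers used for myeloid-derived suppressor cells (MDSCs), neutrophils and monocytes of tumor-bearing hosts that restrain T cells.

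Because the rule turns on Il1b, the promoter of this gene is shown, from 250 bases before to 50 bases after the start site in RefSeq (build GRCm38.p6, written along the gene's strand). The only match to the TATA box, TATAAA, is in capitals and began 31 bases before the start site.
Il1b, chr2:129371090-129371389, minus strand: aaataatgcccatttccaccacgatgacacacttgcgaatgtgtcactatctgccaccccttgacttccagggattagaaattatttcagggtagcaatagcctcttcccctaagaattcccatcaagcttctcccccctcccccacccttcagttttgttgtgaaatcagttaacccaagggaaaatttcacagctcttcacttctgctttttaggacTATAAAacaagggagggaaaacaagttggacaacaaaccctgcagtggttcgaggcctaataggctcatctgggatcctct
TATAAA occurred, on either strand, in 13.6% of the 32851 promoter windows of that length.

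The 6 libraries held 27816638 to 54510172 UMIs, and 31191 of 32195 barcodes were kept. No barcode was shared between any of the 15 pairs of libraries. Cells were tagged before loading, and which libraries shared a capture is not stated, so this does not show that they were captured separately. The doublet caller marked 0.285% of kept cells and 0 members, too few to be informative, so the cells with the highest doublet scores were also left out as an alternative. Markers of other cells were read in members as CPM, the UMIs of a gene in the summed cells of a library scaled to a common total. Summed over 10 monocyte markers, members held 229 to 344 CPM over the 6 libraries, of which Csf1r alone gave 94 to 166 CPM. The 8 macrophage markers summed to 12.3 to 32.9 CPM, with Axl and Mertk at 0 in 6 of 6 libraries, and the 7 erythroid markers to 0 to 6.15 CPM. B cell markers reached 112 to 424 CPM, T and NK cell markers 36.4 to 215 CPM and dendritic cell markers 25.3 to 393 CPM, the last with its highest value in WT replicate 2. Among the T and NK cell markers, Cd3d alone gave 24 to 203 CPM, Nkg7 3.6 to 25.3 CPM and Gzma 0 to 43.2 CPM. Cd3e was at 0 to 0.9 CPM and Trac at 0 to 1 CPM. Basophil and eosinophil markers summed to 12.3 to 32.2 CPM. The 13 mature neutrophil markers summed to 180313 to 192618 CPM, and early neutrophil markers to 2963 to 3517 CPM. The rule fixed much of these sums, since it set a floor for S100a8, S100a9 and Il1b and a ceiling for Camp, Ltf and Ngp, which made up most of the early neutrophil sum. It also held Mki67 and Top2a at 0 and capped F13a1 and Ms4a6c, a small part of the monocyte sum. Of the mature neutrophil markers it did not use, Csf3r was 2114 to 3320.0 CPM, Cxcr2 1382 to 1769 CPM and Retnlg 10576 to 12841 CPM, so markers that the rule left free were present as well.

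The share of Il1b-rich cells among neutrophils that met the rest of the rule was described in each library. The rule set no ceiling for azurophil genes, so these neutrophils may include less mature cells. In those with 0 or 1 Il1b UMI, Elane was 123 and 164 CPM under vehicle and 1103 and 1271 CPM under IACS-70654. In WT it was 395 and 464 CPM. The part of such cells in the shares was not tested. There were 92 and 76 members in WT, 398 and 459 in vehicle-treated and 356 and 429 in IACS-70654-treated mice. As a share of neutrophils that met the rest of the rule, WT replicates held 7.89% (6.41% to 9.59%) and 6.74% (5.34% to 8.36%), with exact Clopper-Pearson 95% intervals that cover counting error only. Vehicle replicates held 20.3% (18.6% to 22.2%) and 19.6% (18% to 21.3%), and IACS-70654 replicates held 24.3% (22.1% to 26.5%) and 23.1% (21.2% to 25%). Both WT libraries lay below all 4 libraries of tumor-bearing mice. No test was drawn, since Il1b chose the cells. The cut at 5 raw UMIs is easier to pass in a deeper cell, and the median UMIs per member were 1950.5 and 1819 in WT, 2156 and 2231 under vehicle, and 2742 and 2741 under IACS-70654. When each neutrophil was thinned at random to 1000 UMIs and asked to keep at least 2 of Il1b, the shares were 13% (11.1% to 15.1%) and 11.4% (9.58% to 13.4%) in WT, 25.6% (23.7% to 27.7%) and 25% (23.2% to 26.8%) with vehicle, and 25.3% (23.1% to 27.6%) and 23.8% (21.8% to 25.8%) with IACS-70654. At equal depth WT stayed lowest, while the vehicle and IACS-70654 libraries overlapped. As a share of all kept CD45+ cells, members were 2.01% and 1.73% in WT, 7.79% and 7.54% under vehicle, and 7.32% and 6.97% under IACS-70654.

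**Figure D1:**
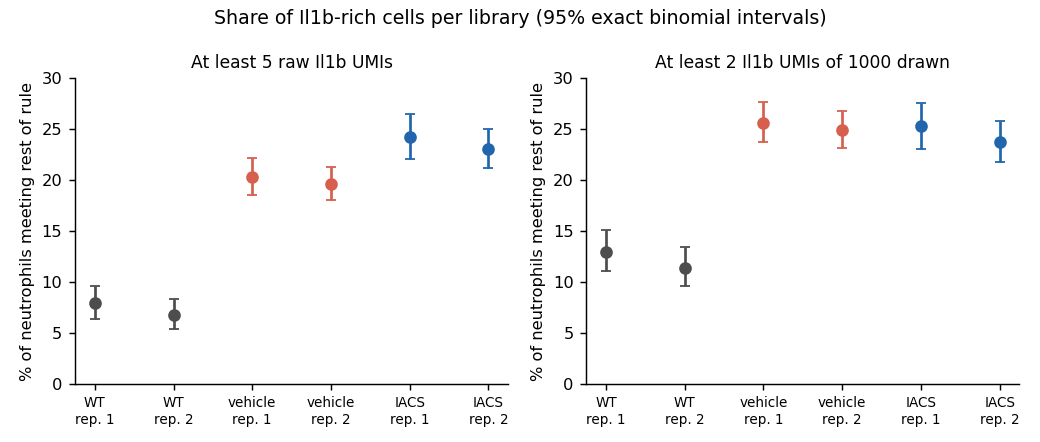
Share of Il1b-rich cells (y axis, percent of neutrophils that met the rest of the rule) in each of 6 libraries (x axis), by at least 5 raw Il1b UMIs (left) and by at least 2 Il1b UMIs after thinning to 1000 UMIs (right). Points are libraries and bars are exact 95% binomial intervals. WT sits lowest in both panels, and the gap between IACS-70654 and vehicle seen on the left is not seen on the right.

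Cells just outside, with 3 or 4 Il1b UMIs, numbered 105 and 92 in WT, 265 and 355 under vehicle, and 235 and 295 under IACS-70654, and cells just inside, with 5 or 6, numbered 48 and 31 in WT, 141 and 170 under vehicle, and 155 and 177 under IACS-70654. Cells just outside were thus more numerous than cells just inside in each library. Median Il1b UMIs per member were 6 and 7 in WT, 8 and 8 under vehicle, and 7 and 7 under IACS-70654, and the highest single cells held 19 and 19 in WT, 27 and 43 under vehicle, and 30 and 41 under IACS-70654. Of all Il1b UMIs of neutrophils meeting the rest of the rule, members held 48% and 46.6% in WT, 68.5% and 66.2% under vehicle, and 69.2% and 66.8% under IACS-70654. Summed over members, Il1b itself was 3564 CPM and 3695 CPM in WT, 3684 CPM and 3516 CPM under vehicle, and 2777 CPM and 2730.4 CPM under IACS-70654, lowest in the IACS-70654 libraries, whose members were also the deepest. The median share of S100a8 and S100a9 in the UMIs of a member was 15% and 12.4% in WT, 13% and 13.8% under vehicle, and 14.2% and 13.4% under IACS-70654. Of 2468 kept cells with at least 5 Il1b UMIs, 73.3% were members. Of the remainder, 286 fell below 3% of S100a8 and S100a9, and, among those above it, 70 failed the granule criterion alone, 18 the monocyte criterion alone and 219 the cell cycle criterion alone, and the others failed more than 1.

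Members were set beside neutrophils of the same libraries that met the rest of the rule with 0 or 1 Il1b UMI, 5721 cells called Il1b-low below. Il1b-rich and Il1b-low cells were split by the rule, so their differences are given as a description and nothing is read from the number of genes past the threshold. In the fit of the 12 sums (edgeR's quasi-likelihood test, library as a block), 1386 of 8966 genes (15.5%) had an adjusted p under 0.01 and a log2 difference over 0.5 in size, 581 higher (6.48%) and 805 lower (8.98%) in Il1b-rich cells. The split depended on scaling. Il1b-low cells were deeper, with median UMIs of 2675 and 2728 in WT, 3756.5 and 3808.5 under vehicle, and 4417 and 4242.5 under IACS-70654, and S100a8 and S100a9 took a larger part of them, at medians of 22.1% to 26.6%. With plain library totals in place of TMM factors, 1399 genes were higher and 336 lower, and the median of all genes moved from -0.05 to 0.25 on the log2 scale. Differences below are relative to the TMM scale, and none of the named genes turned direction with plain totals. In plain CPM, the Il1b-rich sum was above the Il1b-low sum of the same library in all 6 libraries for 23.8% of genes. It was below in all 6 for 6.11%.

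Markers of other cells differed as well. The 10 monocyte markers summed to 229 to 344 CPM in Il1b-rich and 107 to 167 CPM in Il1b-low cells without overlap, with 2 of 8 tested markers higher, Csf1r (94 to 166 CPM and 42.5 to 64.8 CPM) and Ctss, and 0 lower. B cell markers summed to 112 to 424 CPM and 127 to 5114 CPM with 3 of 8 lower (Ebf1, Ighm and Igkc), and T and NK cell markers to 36.4 to 215 CPM and 107 to 287 CPM with 2 of 4 lower (Cd3d and Nkg7). The B cell difference was uneven among libraries. In WT, Ighm was 50.5 and 98.4 CPM in Il1b-rich and 105.6 and 827.9 CPM in Il1b-low cells. With vehicle it was 86.4 and 40.9 CPM against 25.2 and 33.3 CPM, and with IACS-70654 30.2 and 41 CPM against 21.9 and 26.4 CPM. The part of such cells in the differences below was not tested.

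Members of the IL-1 system differed unevenly between Il1b-rich and Il1b-low cells. Of 17 measured genes of this list, 6 were higher (Il1r2, Il1rap, Casp4, Nlrp3, Aim2, Myd88) and 1 lower (Tollip). Il1rap, the signaling chain of the IL-1 receptor, was 227 to 399.8 CPM in the Il1b-rich and 59.1 to 94.2 CPM in the Il1b-low cells (log2 difference 1.84 ± 0.09 SE). The decoy receptor Il1r2 was 339 to 519 CPM in the Il1b-rich and 152 to 291 CPM in the Il1b-low cells (0.64 ± 0.07). The inflammasome sensor Nlrp3 was 135 to 278 CPM in the Il1b-rich and 71.6 to 164 CPM in the Il1b-low cells (0.53 ± 0.08). The signaling chain and the decoy were thus both higher in the Il1b-rich cells. Csf1, the growth factor of macrophages, was 33.7 to 142 CPM in the Il1b-rich and 5.46 to 11.3 CPM in the Il1b-low cells, and Ptgs2, the inducible cyclooxygenase, was 75.1 to 197 CPM in the Il1b-rich and 12.6 to 31.4 CPM in the Il1b-low cells. For neither gene did a library of Il1b-rich cells fall as low as any of Il1b-low cells. The C-type lectin Clec4n was 46.2 to 101 CPM in the Il1b-rich and 1.52 to 7.17 CPM in the Il1b-low cells, and the chemokine receptor-like gene Ccrl2 86.4 to 166 CPM in the Il1b-rich and 12.4 to 33.8 CPM in the Il1b-low cells.

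Receptors, immediate early genes and interferon response genes were among those higher, and granule genes among those lower. Higher in Il1b-rich cells were Cd244a, a receptor of the SLAM family (147 to 296 CPM in the Il1b-rich and 12.6 to 31.3 CPM in the Il1b-low cells), the integrin gene Itga4 (424 to 546 CPM in the Il1b-rich and 55 to 141 CPM in the Il1b-low cells) and Fgl2, a secreted fibrinogen-like protein (336 to 617 CPM in the Il1b-rich and 51 to 97.4 CPM in the Il1b-low cells). They were joined by the phosphodiesterase Pde4b (log2 difference 1.74), the transcription factor Egr1 (1.73), the cytokine signaling inhibitor Socs3 (1.72) and Prr5l (1.64). Of 28 immediate early genes, which respond within minutes to stimuli, 13 were higher, Fos, Junb and Dusp1 among them, and 1 was lower. Of 19 genes of the NF-kappaB pathway, 6 were higher and 0 lower. With plain totals these lists had 20 and 11 higher. Of 39 interferon response genes, 17 were higher and 1 lower (9 higher with at least 10 Il1b UMIs, and 25 higher and 0 lower on plain totals). Isg15, a ubiquitin-like modifier, was at 101 to 301 CPM in the Il1b-rich and 52.2 to 86.1 CPM in the Il1b-low cells. Csf3r, the receptor of G-CSF, was 2114 to 3320.0 CPM in the Il1b-rich and 808 to 1254 CPM in the Il1b-low cells.

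Lower in Il1b-rich cells were granule genes and Ly6g, while of 32 genes for adhesion and surface receptors 9 were higher and 4 lower. Ly6g, the surface antigen by which mouse neutrophils are gated, was 219.7 to 393 CPM in the Il1b-rich and 654 to 1603 CPM in the Il1b-low cells (log2 difference -2.18 ± 0.05), and no library overlapped. Retnlg, a resistin-like secreted protein, was 10576 to 12841 CPM in the Il1b-rich and 28332 to 37753 CPM in the Il1b-low cells, and the collagenase Mmp8 was 555 to 917 CPM in the Il1b-rich and 1709 to 2024 CPM in the Il1b-low cells. Of 19 genes of secondary and tertiary granules outside the rule, 14 were lower and 0 higher, and all 8 azurophil granule genes measured were lower. The azurophil difference was uneven among libraries. In Il1b-low cells Ctsg was 124 and 238 CPM in WT, 63 and 118 CPM with vehicle, and 517 and 606 CPM with IACS-70654, and in Il1b-rich cells it was 55.6 and 61.5 CPM in WT, 53.5 and 57.4 CPM with vehicle, and 54.2 and 181 CPM with IACS-70654, so the gap in CPM was widest with IACS-70654 and small in vehicle replicate 1. Anxa3 (-1.88), Olfm4 (-1.89), Adpgk (-2.07), Ly6c1 (-2.19), Prok2 (-1.90) and the protease Ctsg (-1.82) were the other lower genes among the largest differences. Of 10 stefins and cystatins, inhibitors of cysteine proteases, 5 were lower and 1 higher (the cystatin Cst3), with Stfa3 at 121 to 1056 CPM in the Il1b-rich and 337 to 2886 CPM in the Il1b-low cells, although its level also depended on treatment. Glycolysis genes had no direction that held across scalings, with 1 higher and 10 lower on the TMM scale and 4 higher and 1 lower on plain totals.

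**Figure D2:**
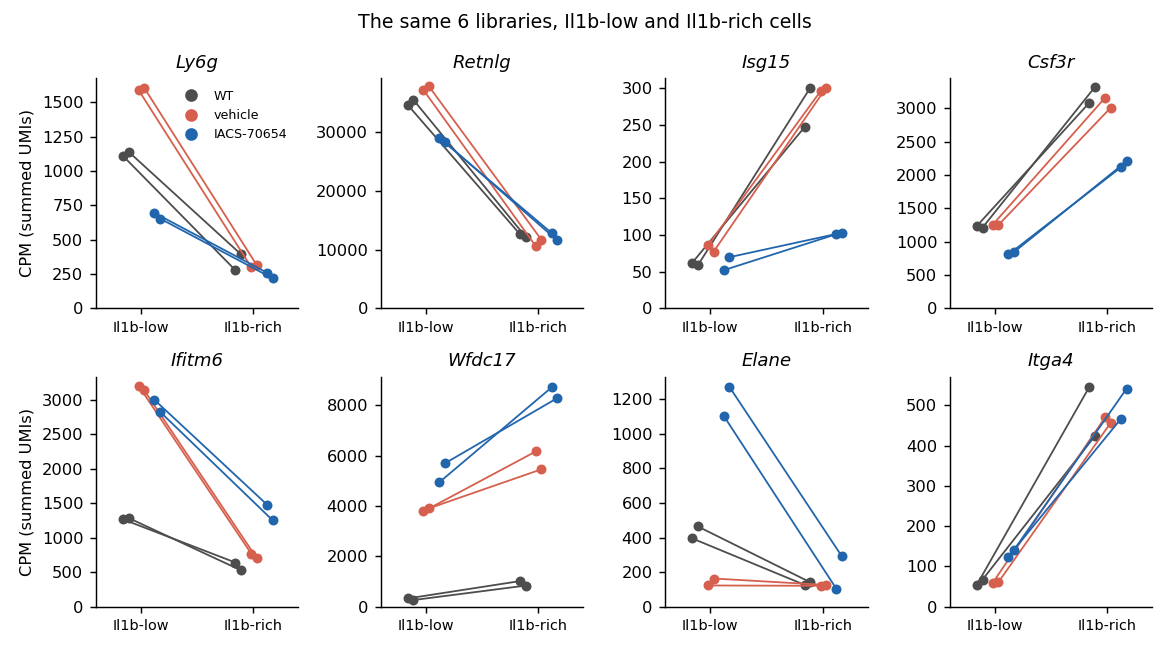
RNA level (y axis, CPM of summed UMIs) of 8 genes in Il1b-low and Il1b-rich cells of the same 6 libraries, joined by a line for each library and colored by group. Ly6g and Retnlg are lower and Csf3r and Itga4 higher in the Il1b-rich cells of all 6 libraries. Elane in the Il1b-low cells is highest with IACS-70654.

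The same genes were followed over classes of raw Il1b UMIs from 0 to 19, leaving out classes of under 20 cells in a library. Csf3r was 693 to 1179.7 CPM over the 6 libraries in cells with 0 Il1b UMIs, 1431 to 2365 CPM with 2 to 4 and 1961 to 3096 CPM with 5 to 9. Ly6g went the other way, from 714 to 1735 CPM with 0 to 362 to 681 CPM with 2 to 4 and 252 to 467 CPM with 5 to 9. Mmp8 was 1745 to 2115 CPM in cells without Il1b UMIs and 603 to 1036 CPM in cells with 5 to 9. Levels changed in the same direction on both sides of the threshold of the rule. Depth changed along with them, since cells with 0 Il1b UMIs had medians of 2728.5 to 4514.5 UMIs and cells with 5 to 9 had 1883 to 2796, and its part in the levels was not tested.

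**Figure D3:**
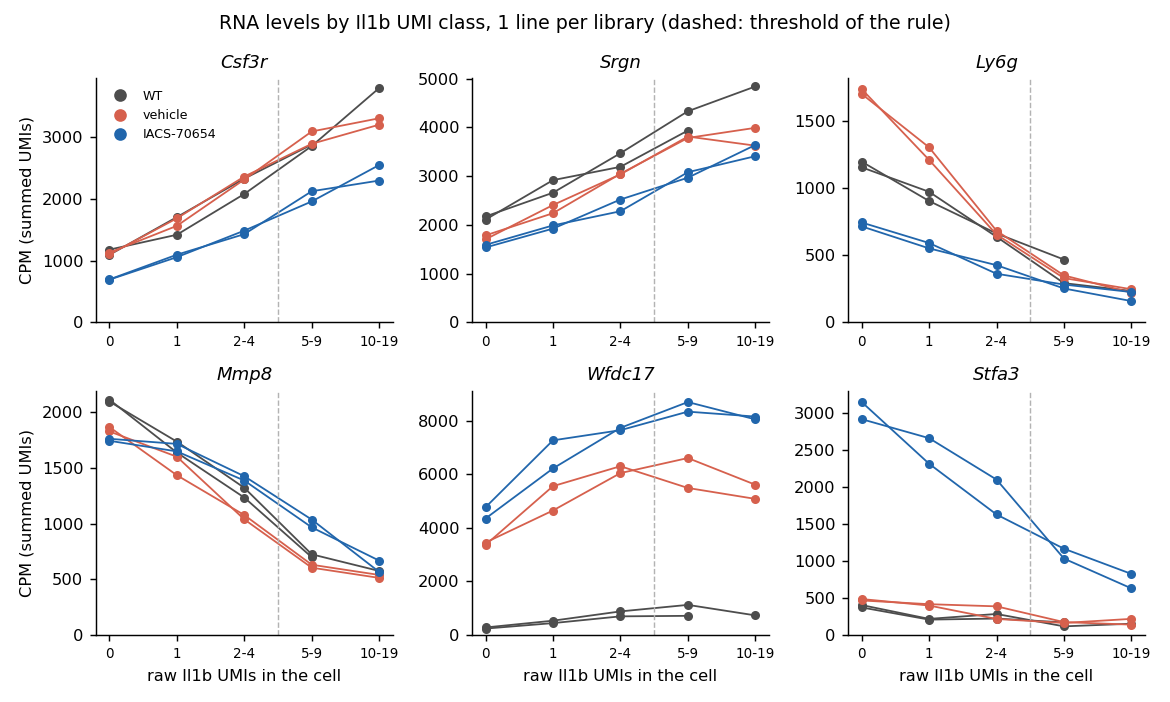
RNA level (y axis, CPM of summed UMIs) of 6 genes by the number of raw Il1b UMIs in the cell (x axis), with 1 line for each library colored by group and a dashed line at the threshold of 5. Csf3r climbs and Ly6g and Mmp8 decline over the classes in all 3 groups, and Stfa3 is highest with IACS-70654 in each class.

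How members varied among themselves was read from the share of cells with at least 1 UMI of a gene, each cell thinned to 1000 UMIs. Csf3r was found in 86.7% to 94.7% of members over the 6 libraries (98.7% to 100% before thinning) and Cxcr2, the receptor for release from BM, in 74.4% to 80.3% (94.3% to 97.4% before thinning). B cells, which should lack these genes, gave 0.68% to 4% and 1.3% to 3.19%, with median depths of 2985 to 4776.5 UMIs against 1819 to 2742 in members. Most members thus held a UMI of each receptor. The share with Ly6g was 16.3% and 30.3% in WT, 17% and 17.5% under vehicle, and 13.5% and 13.3% under IACS-70654, against 37.8% to 65.1% of Il1b-low cells and 4% to 8.44% of B cells. The share with Isg15 was 19.6% and 21.1% in WT, 17.7% and 20.6% under vehicle, and 9.86% and 9.58% under IACS-70654, against 0% to 2% of B cells. Il1rn, the antagonist of the IL-1 receptor, was found in 10.9% and 11.8% in WT, 8.1% and 9.96% under vehicle, and 4.79% and 3.74% under IACS-70654 (B cells, 0% to 0.313%), and Ptgs2 in 5.26% to 12% (B cells, 0% to 1.3%). Before thinning, members gave 19.3% to 37.7% for Isg15, 11% to 23.7% for Il1rn and 10.53% to 17.1% for Ptgs2, and a cell with 0 UMIs may still express a gene. For Isg15 and Il1rn the IACS-70654 libraries were lowest. Cd274, which encodes PD-L1, was found in 6.52% and 6.58% in WT, 5.82% and 4.65% under vehicle, and 1.97% and 2.34% under IACS-70654, against 0.462% to 1.16% of Il1b-low cells. B cells, which can express this gene and so are a poor background for it, gave 0% to 6%, the highest from 3 of 50 cells. Arg1 and Nos2, arginine-metabolizing enzymes of suppressive myeloid cells, were at 0% to 2.17% and 0% to 0.664% of members.

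Vehicle-treated tumor-bearing mice were compared with WT mice. UMIs were summed over members in each library and tested by edgeR's quasi-likelihood test, with adjustment after Benjamini and Hochberg over all genes. Tumor, its transplantation and dosing with vehicle all set these groups apart and cannot be told apart here. Log2 changes below are those of the fit, with its SE, and CPM values are on plain totals. Wfdc17, Igfbp6, Ifitm genes and several glycolysis genes were higher, and the cystine transporter gene Slc7a11 and the glucocorticoid-induced genes Fkbp5 and Tsc22d3 were lower. In all, 138 of 7144 genes were called (1.93%), of which 84 were higher (1.18%) and 54 lower (0.756%). With plain library totals, 57 were higher and 85 lower, and the median of all genes was -0.03 in place of 0.06. Without any overlap of libraries, 21.6% of genes were higher and 23.8% lower. Members of vehicle libraries had a median mitochondrial share of 0.394% and 0.363%, against 0.26% and 0.277% in WT. Markers of other cells moved with this comparison. The T cell marker Cd3d was 121 and 203 CPM in WT and 51.4 and 75.7 CPM with vehicle, and the 9 T and NK cell markers summed to 157 and 215 CPM in WT and 62.7 and 89.6 CPM with vehicle. Cd3e was at 0 and Cd3g and Trac at 0 to 1.0 CPM in the 4 libraries. In Il1b-low cells Cd3d was 245 and 236.8 CPM in WT and 186.3 and 175.5 CPM with vehicle. Cd74 and H2-Aa, 2 MHC class II genes among 10 dendritic cell markers, were called lower, and the list summed to 25.3 and 393 CPM in WT and 32.9 and 45.3 CPM with vehicle, with Xcr1 and Cd209a at 0 in the 4 libraries. Cd74 was 5.1 and 178.3 CPM in WT and 15.4 and 14.8 CPM with vehicle. H2-Aa was 5.1 and 86.1 CPM in WT and 7.2 and 4.4 CPM with vehicle, so both were high in WT replicate 2 only. The part of such cells and of the mitochondrial share in the changes below was not tested.

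Wfdc17, a small secreted protein with a WAP domain, was 1021 and 842 CPM in WT and 6166 and 5458 CPM with vehicle (log2 change 2.73 ± 0.09, adjusted p = 1.1e-45). Ifitm1, a membrane protein induced by interferon, was 1092 and 1057 CPM in WT and 5878 and 5670.0 CPM with vehicle (2.52 ± 0.08, adjusted p = 1.1e-45). For both genes the libraries of the groups did not overlap, which the rule that named them required. Igfbp6, a binding protein for insulin-like growth factors, was 25.3 and 0 CPM in WT and 257 and 189 CPM with vehicle (4.08 ± 0.41, adjusted p = 2.8e-13). Pam, which amidates peptides, was 35.4 and 30.7 CPM in WT and 192 and 149 CPM with vehicle (2.44 ± 0.33). Steap4, a metalloreductase, was 212 and 215 CPM in WT and 681 and 608 CPM with vehicle (1.69 ± 0.15, adjusted p = 5.2e-15). Tspo, a protein of the outer mitochondrial membrane (1.41), Rufy4 (1.45) and Chil1, a chitinase-like lectin (1.36), completed the largest increases among well-expressed genes. Prok2, a chemoattractant peptide, was 15.2 and 18.4 CPM in WT and 124 and 124 CPM with vehicle (2.99 ± 0.42). WT members summed to only 197826 and 162649 UMIs, so the WT values of Igfbp6, Pam and Prok2 rest on few molecules.

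Slc7a11, which imports cystine for glutathione synthesis, was 551 and 492 CPM in WT and 146 and 169.7 CPM with vehicle (log2 change -1.63 ± 0.16, adjusted p = 2.1e-13). Fkbp5 and Tsc22d3, genes that glucocorticoids induce, were 187 and 178 CPM in WT and 55.5 and 60.9 CPM with vehicle (-1.55 ± 0.24) and 293 and 399.6 CPM in WT and 134 and 124 CPM with vehicle (-1.31 ± 0.18), respectively. That no libraries overlapped for these genes was part of the rule that named them. Others that fell were the orphan receptor Gpr141 (-1.54), the sialyltransferases St3gal6 (-1.28) and St3gal5 (-1.23), Plaur, the urokinase receptor (-1.09), and Mgst1, a microsomal glutathione transferase (-1.05). Cxcr4, the receptor that retains neutrophils in BM, was 121 and 166 CPM in WT and 40.1 and 56.6 CPM with vehicle (-1.43 ± 0.28, adjusted p = 0.00015), whereas Cxcr2 was 1602 and 1549 CPM in WT and 1769 and 1697 CPM with vehicle (0.23 ± 0.08, adjusted p = 0.12). In cells with at least 10 Il1b UMIs, 0 receptors for chemoattractants and growth factors were called lower. These cells numbered only 21 and 19 in WT, and 13 genes in all were called at that cut. A call lost there is not read as an absent change.

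By gene list, glycolysis and glucose uptake had 5 of 23 measured members higher (Tpi1, Gapdh, Eno1, Pkm and Ldha) and 0 lower, and the median of the list was 0.61 against 0.06 over all genes tested. Tpi1 was 30.3 and 30.7 CPM in WT and 116 and 106 CPM with vehicle (1.95 ± 0.37) and Eno1 126 and 135 CPM in WT and 273 and 277 CPM with vehicle (1.17 ± 0.20). The WT values of Tpi1 also rest on few molecules. The Ifitm and p200 families had 3 of 5 higher (Ifitm1, Ifitm2 and Ifitm3), and the stefins and cystatins 4 of 9. Leaving out 1 library left between 0 and 4 of these stefins and between 2 and 5 of the glycolysis genes called. Plain totals gave 3 higher glycolysis genes and 3 higher stefins or cystatins, and in cells with at least 10 Il1b UMIs the counts were 0 for glycolysis, 1 for stefins and cystatins and 1 for the Ifitm and p200 families. In the IL-1 list 0 of 16 were called in either direction by edgeR and 0 by DESeq2, and 4 genes (Myd88, Casp4, Tollip and Aim2) had an unadjusted p under 0.05, with higher values for vehicle, as against 1060 of all 7144 genes with an unadjusted p under 0.05 in either direction. Il1rn was 121 and 154 CPM in WT and 83.3 and 103 CPM with vehicle (-0.44 ± 0.25) and Nlrp3 278 and 215 CPM in WT and 209 and 169.7 CPM with vehicle (-0.31 ± 0.19). Of 39 interferon response genes only Oasl2 was called higher, and this count of 1 was 0 with DESeq2, with plain totals, with at least 10 Il1b UMIs and without the highest doublet scores. Of 95 measured genes of the published MDSC signature that the study used, 21 were higher and 2 lower, and 7 and 1 with at least 10 Il1b UMIs. Of all genes tested, 1.18% were higher and 0.756% lower. The signature was published from earlier work and holds Il1b among its genes.

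The effect of the inhibitor was taken from IACS-70654 against vehicle, both in tumor-bearing mice. Stefin genes, Jun and Id2 were higher with IACS-70654, and 18 of 39 interferon response genes, 7 of 16 genes of the IL-1 list, 13 of 23 glycolysis genes and Acod1 were lower. Of 7144 genes 720 were called (10.1%), 307 higher (4.3%) and 413 lower (5.78%). With plain totals, 394 were higher and 317 lower, and the median of all genes was 0.10 in place of 0.03. Without any overlap of libraries, 36.4% of genes were higher and 24.2% lower. Members of IACS-70654 libraries were deeper, at medians of 2742 and 2741 UMIs against 2156 and 2231 with vehicle, and 709 genes were called when members were chosen after thinning to equal depth. Their median mitochondrial share was 0.561% and 0.544%, against 0.394% and 0.363% with vehicle. Markers of other cells also moved. The T cell marker Cd3d was 51.4 and 75.7 CPM with vehicle and 24 and 26.4 CPM with IACS-70654 (called lower), while the 9 T and NK cell markers summed to 62.7 and 89.6 CPM with vehicle and 36.4 and 120.1 CPM with IACS-70654. Cd3e, Cd3g and Trac were at 0 to 2.9 CPM in these libraries. Ighm among the B cell markers and Cx3cr1 among the monocyte markers were called lower, and Klf4 among the latter higher. The B cell list summed to 246 and 196 CPM with vehicle and 112 and 291 CPM with IACS-70654, and the monocyte list to 262 and 235 CPM and 229 and 256 CPM. The sums of these 3 lists overlapped between the groups. The macrophage list did not overlap, at 15.4 and 21.8 CPM with vehicle and 32.9 and 31.5 CPM with IACS-70654, of which Adgre1 gave 11.3 and 16.5 CPM with vehicle and 27.5 and 29.3 CPM with IACS-70654 (0.93 ± 0.34, adjusted p = 0.034), and Axl and Mertk were at 0. The part of such cells and of the mitochondrial share in the changes below was not tested.

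Stfa3, a stefin that inhibits cathepsins, was 121 and 166 CPM in WT, 173 and 160.1 CPM with vehicle, and 1056 and 902 CPM with IACS-70654 (IACS-70654 against vehicle, log2 change 2.49 ± 0.10, adjusted p = 2.9e-38). Stfa2 was 339 and 86.1 CPM in WT, 520.4 and 436 CPM with vehicle, and 1825 and 1775 CPM with IACS-70654 (1.85 ± 0.09, adjusted p = 2.1e-32). Cstdc5 was 1345 and 707 CPM in WT, 1592 and 1432 CPM with vehicle, and 4476 and 4327 CPM with IACS-70654 (1.47 ± 0.07, adjusted p = 5.2e-31). The IACS-70654 libraries stood above the other 4 libraries for each of these genes. Of 9 measured stefin and cystatin genes, 6 were higher and 0 lower, with a median of 0.70 against 0.03 over all genes, and 3 were higher with at least 10 Il1b UMIs or with members chosen after thinning. Stefin genes are near-identical copies, so how reads were divided among single members is uncertain. Jun, a subunit of AP-1, was 114 and 94 CPM with vehicle and 278 and 298 CPM with IACS-70654 (1.41 ± 0.13, adjusted p = 6.3e-16), while its relative Junb was 2505 and 2434 CPM with vehicle and 1996 and 1936 CPM with IACS-70654 (-0.40 ± 0.06) and did not pass the size threshold. Id2, an inhibitor of basic helix-loop-helix factors (1.26), the linker histone Hist1h1c (1.17), the nuclear envelope protein Syne1 (1.06) and the focal adhesion protein Lpp (0.99) were the other largest increases.

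**Figure D4:**
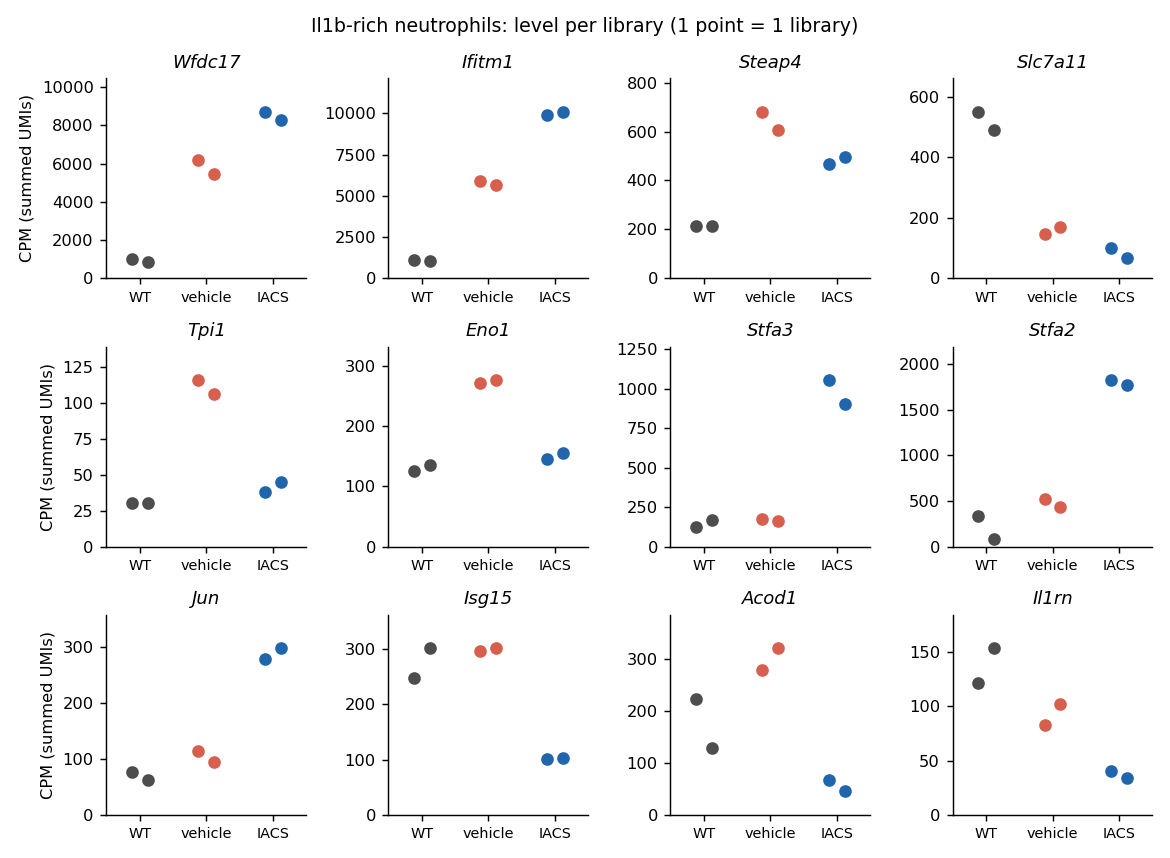
RNA level (y axis, CPM of summed UMIs over members) of 12 genes in WT, vehicle and IACS-70654 libraries (x axis), 1 point for each library. Wfdc17 and Ifitm1 stand higher with vehicle than in WT and higher again with IACS-70654, Tpi1 and Eno1 are high with vehicle alone, and Isg15, Acod1 and Il1rn are lowest with IACS-70654.

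Acod1, the enzyme that makes itaconate in activated myeloid cells, was 222 and 129 CPM in WT, 278 and 320.3 CPM with vehicle, and 66.6 and 45.4 CPM with IACS-70654 (IACS-70654 against vehicle, log2 change -2.51 ± 0.15, adjusted p = 1.6e-26). Cmah, which makes a form of sialic acid, was 513 and 485 CPM with vehicle and 125 and 133 CPM with IACS-70654 (-2.02 ± 0.11, adjusted p = 1.6e-29). The aspartic protease gene Asprv1 was 624 and 643 CPM with vehicle and 180.3 and 214 CPM with IACS-70654 (-1.75 ± 0.10). All 3 were lower with IACS-70654 than with vehicle in both libraries, which the rule that named them required. Sh2d3c, a signaling adaptor (-1.89), Chil1 (-1.49), the myosin Myo1d (-1.42) and Ninj1, which ruptures membranes in cell death (-1.40), were the other largest decreases beside Isg15. Hdc, the enzyme that makes histamine, was 1165 and 1203 CPM with vehicle and 626 and 618 CPM with IACS-70654 (-1.0 ± 0.07). Csf1 was 138 and 122 CPM with vehicle and 44.4 and 33.7 CPM with IACS-70654 (-1.81 ± 0.18).

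Of 16 measured genes of the IL-1 list, 7 were lower with IACS-70654 and 0 higher, with a median of -0.44 against 0.03 over all genes. Among antagonists, Il1rn was 121 and 154 CPM in WT, 83.3 and 103 CPM with vehicle, and 40.9 and 34.4 CPM with IACS-70654 (-1.39 ± 0.19, adjusted p = 1.4e-08). The decoy Il1r2 was 344 and 359 CPM with vehicle and 519 and 443 CPM with IACS-70654 (0.38 ± 0.09, adjusted p = 0.0014). Among ligands of the family, Il1f9, which encodes IL-36γ, was 520.4 and 496 CPM with vehicle and 286 and 256 CPM with IACS-70654 (-0.98 ± 0.09, adjusted p = 1.4e-14). Il18 was 9.26 and 19.1 CPM with vehicle and 1.78 and 3.66 CPM with IACS-70654 (-2.38 ± 0.61). The antagonist and these ligands fell together, whereas Il1r2 did not pass. Of the inflammasome sensors, Nlrp3 was 209 and 169.7 CPM with vehicle and 139 and 135 CPM with IACS-70654 (-0.53 ± 0.13) and Aim2 67.9 and 82.7 CPM with vehicle and 41.7 and 41 CPM with IACS-70654 (-0.94 ± 0.20). The adaptor Myd88 was 181 and 171 CPM with vehicle and 123 and 124 CPM with IACS-70654 (-0.58 ± 0.13). Il18rap, a chain of the IL-18 receptor, fell by 0.55 on the log2 scale. Il1rap, the shared receptor chain, was 272 and 253 CPM with vehicle and 337 and 399.8 CPM with IACS-70654 (0.43 ± 0.10). Leaving out 1 library left 5 to 8 genes of the list lower. In cells with at least 10 Il1b UMIs edgeR called 0. Il18 was not called without vehicle replicate 2 or without either IACS-70654 replicate.

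Of 39 measured interferon response genes, 18 were lower and 0 higher, with a median of -0.55. Isg15 was 248 and 301 CPM in WT, 296 and 301 CPM with vehicle, and 101 and 103 CPM with IACS-70654 (-1.61 ± 0.12, adjusted p = 1.2e-19). Slfn4, of the Schlafen family, was 934 and 887 CPM with vehicle and 465 and 419 CPM with IACS-70654 (-1.11 ± 0.08, adjusted p = 7.7e-21). The antiviral enzyme Rsad2 was 131 and 119 CPM with vehicle and 70.2 and 60.8 CPM with IACS-70654 (-1.0 ± 0.16). All of these were lower in both IACS-70654 libraries, which for Isg15 the rule of naming required. Ifit1, which binds viral RNA, was 113 and 105 CPM with vehicle and 75.5 and 82 CPM with IACS-70654 (-0.53 ± 0.16), Slfn5 was 322 and 252 CPM with vehicle and 229 and 182 CPM with IACS-70654 (-0.55 ± 0.12), and the transcription factor Irf1 changed by -0.72. Other lower genes included Ifit3b, Isg20, Oas2, Oas3, Oasl1, Oasl2, Usp18, Rtp4, Trim30a, Slfn1 and Parp14. Leaving out 1 library gave 11 to 22 lower and 0 higher, plain totals 12, DESeq2 11 and at least 10 Il1b UMIs 12 lower. Ifitm1 and Ifitm6, of another interferon-induced family, moved the other way, with Ifitm1 at 5878 and 5670.0 CPM with vehicle and 9904 and 10101 CPM with IACS-70654 (0.72 ± 0.06) and Ifitm6 at 772 and 704 CPM with vehicle and 1482 and 1256 CPM with IACS-70654 (0.82 ± 0.08). In cells with 5 to 9 Il1b UMIs, Ifitm3 was 1770.5 and 1820 CPM with vehicle and 1600 and 1564 CPM with IACS-70654. Ifitm2 overlapped in these cells, at 4097 and 4058 CPM with vehicle and 3955 and 4152 CPM with IACS-70654. The family thus did not move in a single direction.

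Promoters of 4 of the lower interferon genes are printed because the interferon-stimulated response element, searched on both strands as 2 copies of GAAA set apart by any 2 bases, was found in each. Capitals mark the matches, the windows run from 250 bases before to 50 bases after the RefSeq start site (GRCm38.p6), and each is written along the gene's strand.
Isg15, chr4:156200769-156201068, minus strand: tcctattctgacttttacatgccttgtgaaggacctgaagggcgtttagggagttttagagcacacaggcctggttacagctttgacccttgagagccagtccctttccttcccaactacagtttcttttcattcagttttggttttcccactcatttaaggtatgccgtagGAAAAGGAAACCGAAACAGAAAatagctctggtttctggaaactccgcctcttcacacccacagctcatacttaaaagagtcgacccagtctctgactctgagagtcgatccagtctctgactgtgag
Rsad2, chr12:26456403-26456702, minus strand: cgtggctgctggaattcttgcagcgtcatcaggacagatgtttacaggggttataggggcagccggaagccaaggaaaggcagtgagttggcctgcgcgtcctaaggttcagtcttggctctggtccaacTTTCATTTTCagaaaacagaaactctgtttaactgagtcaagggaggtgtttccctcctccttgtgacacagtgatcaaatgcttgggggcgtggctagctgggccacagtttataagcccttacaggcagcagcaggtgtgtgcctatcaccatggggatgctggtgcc
Ifit1, chr19:34640639-34640938, plus strand: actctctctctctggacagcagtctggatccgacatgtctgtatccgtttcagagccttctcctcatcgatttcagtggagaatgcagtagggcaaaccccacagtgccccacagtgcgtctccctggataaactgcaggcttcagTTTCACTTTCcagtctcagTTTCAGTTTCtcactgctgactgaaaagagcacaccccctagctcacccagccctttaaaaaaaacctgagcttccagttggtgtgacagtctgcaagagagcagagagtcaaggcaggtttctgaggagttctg
Slfn5, chr11:82951852-82952151, plus strand: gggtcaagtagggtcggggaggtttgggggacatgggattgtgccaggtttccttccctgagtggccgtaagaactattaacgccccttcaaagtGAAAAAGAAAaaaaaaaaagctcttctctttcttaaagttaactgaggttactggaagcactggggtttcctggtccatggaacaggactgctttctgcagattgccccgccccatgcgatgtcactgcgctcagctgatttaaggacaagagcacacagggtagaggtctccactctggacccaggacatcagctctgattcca
Isg15 had 3 overlapping matches, the farthest beginning 78 bases before the start site, Ifit1 had 2 and Rsad2 and Slfn5 1 each. Among the 18 lower genes, 13 had a window and 7 of them a match. Among the interferon genes tested and not called, 12 of 20 windows had one, against 3.44% of the 32851 windows. A match describes letters only.

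Of 23 measured genes of glycolysis and glucose uptake, 13 were lower with IACS-70654 and 0 higher, with a median of -0.68. Tpi1, triosephosphate isomerase, was 30.3 and 30.7 CPM in WT, 116 and 106 CPM with vehicle, and 38.2 and 45.4 CPM with IACS-70654 (-1.47 ± 0.18, adjusted p = 2.5e-10). Eno1, enolase, was 126 and 135 CPM in WT, 273 and 277 CPM with vehicle, and 145 and 156 CPM with IACS-70654 (-0.94 ± 0.12, adjusted p = 3.3e-10). In both genes the vehicle libraries alone were high. The lactate exporter Slc16a3 was 269 and 288 CPM with vehicle and 151 and 130.3 CPM with IACS-70654 (-1.06 ± 0.12). Pfkfb4, which sets the pace of glycolysis, was 309 and 302 CPM with vehicle and 179 and 154 CPM with IACS-70654 (-0.95 ± 0.11). The glucose carrier Slc2a1 (-0.90), the hexokinase Hk2 (-1.18), Pkm (-0.60) and Ldha (-0.80) were also lower, while Gapdh was 692 and 758 CPM with vehicle and 598 and 545 CPM with IACS-70654 (-0.42 ± 0.08). Leaving out 1 library gave 11 to 13 lower. Plain totals gave 12 lower and 1 higher, and at least 10 Il1b UMIs gave 5 lower. Txn1, a thioredoxin, was 2797 and 2768 CPM with vehicle and 1606 and 1576 CPM with IACS-70654 (-0.87 ± 0.06). The ferritin light chain Ftl1 was 4586 and 4366 CPM with vehicle and 3061 and 2862 CPM with IACS-70654 (-0.66 ± 0.06).

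Of 26 measured receptors for chemoattractants and growth factors, 7 were lower with IACS-70654 and 0 higher, and 5 with plain totals or DESeq2 and 0 with at least 10 Il1b UMIs were lower. Over all genes tested, 5.78% were lower and 4.3% higher. Csf3r was 3084 and 3320.0 CPM in WT, 3159 and 3009 CPM with vehicle, and 2114 and 2205 CPM with IACS-70654 (-0.58 ± 0.06, adjusted p = 5.0e-13). Cxcr2 was 1602 and 1549 CPM in WT, 1769 and 1697 CPM with vehicle, and 1382 and 1486 CPM with IACS-70654 (-0.34 ± 0.07, adjusted p = 2.6e-05) and stayed under the size threshold. Cxcr1 was 0 and 12.3 CPM in WT, 55.5 and 48.7 CPM with vehicle, and 4.44 and 5.86 CPM with IACS-70654, with both vehicle libraries above the other 4. Ptafr, the receptor of platelet-activating factor, was 146 and 153 CPM with vehicle and 88.8 and 76.9 CPM with IACS-70654 (-0.93 ± 0.15). Of chemokines, Ccl6 was 1077 and 1090.5 CPM with vehicle and 1872 and 1796 CPM with IACS-70654 (0.69 ± 0.07) and Ccl9 12.3 and 16.5 CPM with vehicle and 40.9 and 45.4 CPM with IACS-70654 (1.49 ± 0.30), and the list had 2 of 7 higher (4 with plain totals) and 1 lower. The lower one, Prok2, was 124 and 124 CPM with vehicle and 53.3 and 63.7 CPM with IACS-70654 (-1.15 ± 0.16). Of 19 genes of MHC class I and peptide loading, 4 were lower (H2-K1, H2-D1, H2-T24 and Tap1) and 1 higher (Pdia3), with H2-D1 and H2-K1 changing by -0.50 and -0.61. Without 1 library, 1 to 5 of the list were lower. Cd274 was 36 and 54 CPM with vehicle and 22.2 and 21.2 CPM with IACS-70654 (-1.14 ± 0.26). Cd14, the co-receptor for endotoxin, was 82.3 and 73.1 CPM with vehicle and 127 and 127 CPM with IACS-70654 (0.65 ± 0.16). Of the writers, readers and erasers of histone acetylation and methylation that include CBP and P300, 2 of 26 were lower, Kdm6b (-0.51) and Ezh1 (-0.81), and 0 higher, against 5.78% of all genes lower. With 1 library left out, the count was 0 to 2.

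Of 18 measured genes of secondary and tertiary granules, 4 were higher with IACS-70654 (Mmp8, Cybb, Lyz2 and Anxa1) and 3 lower (Chil1, Mmp25 and Arg2), with a median of -0.13. Among all genes tested, 4.3% were higher and 5.78% lower. Lyz2, lysozyme, was 2866 and 3111 CPM in WT, 2171 and 2352 CPM with vehicle, and 4550.3 and 3971 CPM with IACS-70654 (log2 change 0.84 ± 0.06, adjusted p = 6.2e-20), Anxa1, an annexin of tertiary granules, was 889 and 818 CPM with vehicle and 1467 and 1354 CPM with IACS-70654 (0.66 ± 0.07). Cybb, the catalytic subunit of the NADPH oxidase, was 120.3 and 117 CPM with vehicle and 249.6 and 241 CPM with IACS-70654 (0.98 ± 0.13). The azurophil list had 4 of 7 higher (1 with DESeq2) and 0 lower, and 3 of these, Elane, Prtn3 and Ctsg, were high in 1 library only. Elane, neutrophil elastase, was 121 and 126 CPM with vehicle and 105 and 291 CPM with IACS-70654 (0.64 ± 0.17), Prtn3 was 167 and 168 CPM with vehicle and 140.3 and 417 CPM with IACS-70654 and Ctsg 53.5 and 57.4 CPM with vehicle and 54.2 and 181 CPM with IACS-70654. In IACS-70654 replicate 2, 5 of 429 members held 998 of the 1527 UMIs of Elane, Prtn3, Ctsg and Mpo (65.4%), and without them the sum fell from 1118 to 387 CPM. Without that library, the log2 changes were -0.29 for Elane, -0.30 for Prtn3 and -0.085 for Ctsg, and none was called. Ctsc, which activates these proteases, was 44.2 and 34.8 CPM with vehicle and 95 and 88.6 CPM with IACS-70654 (1.15 ± 0.20) and stayed called without each library in turn.

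Of the 95 measured MDSC signature genes, 27 were lower with IACS-70654 and 5 higher, with a median of -0.33. Of all genes tested, 5.78% were lower and 4.3% higher, with a median of 0.03, so nothing is read from the 5 higher. With at least 10 Il1b UMIs, 15 signature genes were lower and 4 higher. The 5 that rose were Ifitm1, Cd14 and the stefins Stfa2, Stfa2l1 and Stfa3. Igfbp6 was 25.3 and 0 CPM in WT, 257 and 189 CPM with vehicle, and 126 and 143 CPM with IACS-70654 (-0.78 ± 0.13), Tspo was 1418 and 1271 CPM with vehicle and 971 and 1009 CPM with IACS-70654 (-0.51 ± 0.07). Steap4 was 681 and 608 CPM with vehicle and 466 and 497 CPM with IACS-70654 (-0.48 ± 0.08, adjusted p = 2.5e-06). Wfdc17, another signature gene, was 6166 and 5458 CPM with vehicle and 8706 and 8280.4 CPM with IACS-70654 (0.48 ± 0.06, adjusted p = 2.1e-10). Vehicle libraries enter this comparison and the one with WT, so the changes of a gene in both cannot be read as independent.

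**Figure D5:**
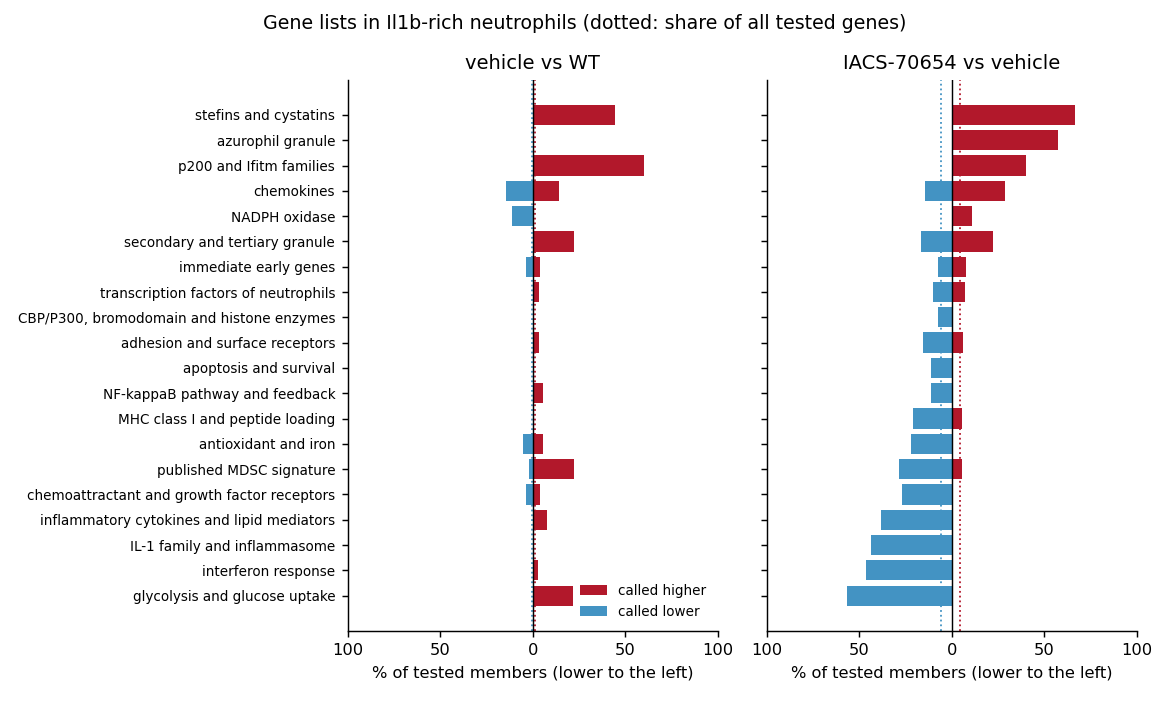
Share of measured members of 20 gene lists that were called higher (red, to the right) or lower (blue, to the left) for vehicle against WT and for IACS-70654 against vehicle (x axis, percent), with dotted lines at the share of all tested genes. Glycolysis genes are called higher in the left and lower in the right panel, and the comparisons share the vehicle libraries.

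IACS-70654 libraries were also compared directly with WT, in the same fit. Of 7144 genes 354 were called (4.96%), 121 higher (1.69%) and 233 lower (3.26%). Wfdc17 (3.21 ± 0.09) and Ifitm1 (3.24 ± 0.08) were higher with IACS-70654 than in WT, as was Stfa3 (2.81 ± 0.17, adjusted p = 3.1e-26). Isg15 (-1.38 ± 0.19), Il1rn (-1.83 ± 0.29), Csf3r (-0.54 ± 0.07) and Slc7a11 (-2.63 ± 0.17) were lower. Acod1 differed from WT by -1.68 ± 0.25 (adjusted p = 2.7e-07). The stefin list had 6 of 9 higher and 0 lower, interferon response 4 of 39 lower and 0 higher, glycolysis 2 of 23 lower and 0 higher, and the MDSC signature 15 of 95 higher and 12 lower. Libraries did not overlap for 28.5% of genes that were higher and 23.6% that were lower. Without WT replicate 1 the number of genes called was 175, and without WT replicate 2 it was 212. With 1 library left out, 2 to 5 interferon and 0 to 2 glycolysis genes were lower, and with at least 10 Il1b UMIs 2 and 0, when the signature had 8 higher and 2 lower. Beside these changes, the median mitochondrial share was 0.561% and 0.544% with IACS-70654 and 0.26% and 0.277% in WT, macrophage markers summed to 32.9 and 31.5 CPM and 20.2 and 12.3 CPM, and Cd3d was called lower (-2.62 ± 0.30). The part of these in the changes was not tested.

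Whether the changes were particular to Il1b-rich cells was tested as a difference of changes between Il1b-rich and Il1b-low cells in the 12 sums. For IACS-70654 against vehicle, 259 of 8966 genes were called (2.89%), 178 with a higher change in Il1b-rich cells (1.99%) and 81 with a lower one (0.903%). With plain totals the split was 29 to 202, and the median of all genes was -0.21 in place of 0.05, so the split depended on the scaling. Interferon response had 4 of 39 genes with a more negative change in Il1b-rich cells (Ifit1, Ifit3, Isg15 and Slfn5) and 0 with a less negative one, and 9 and 0 on plain totals. With 1 library left out there were 2 to 7, and DESeq2 called 0. Isg15 in Il1b-low cells was 62.4 and 59 CPM in WT, 86.1 and 77.5 CPM with vehicle, and 52.2 and 69.9 CPM with IACS-70654, and the difference of changes was -0.89 ± 0.16 (adjusted p = 5.2e-05). In the IL-1 list, 0 genes differed in either direction with DESeq2 or with RLE size factors in place of TMM. On plain totals 1 of that list had a lower change. With RLE factors, stefins and cystatins had 1 gene with a higher and 0 with a lower change, and so had glycolysis. Secondary and tertiary granule genes had 9 of 19 with a higher and 0 with a lower change (4 and 0 on plain totals, 1 and 0 with at least 10 Il1b UMIs, 3 and 0 with members chosen after thinning), and azurophil genes 5 of 8 with a lower and 0 with a higher change (5 and 0 on plain totals). For the latter DESeq2 called 2 and at least 10 Il1b UMIs gave 1. In Il1b-low cells Elane was 395 and 464 CPM in WT, 123 and 164 CPM with vehicle, and 1103 and 1271 CPM with IACS-70654, a rise with IACS-70654 in both libraries that Il1b-rich cells showed in 1 library only. Ly6g was 1109.7 and 1139.8 CPM in WT, 1587 and 1603 CPM with vehicle, and 695 and 654 CPM with IACS-70654 in Il1b-low and 278 and 393 CPM in WT, 301 and 315 CPM with vehicle, and 260.2 and 219.7 CPM with IACS-70654 in Il1b-rich cells (difference of changes 1.14 ± 0.12, adjusted p = 1.6e-10). In cells with 0 Il1b UMIs, Il1rn was 60.3 and 54.6 CPM with vehicle and 20.4 and 23.5 CPM with IACS-70654. Stfa3 in these cells was 483 and 463 CPM with vehicle and 3150 and 2917 CPM with IACS-70654. Csf3r in them was 1132 and 1103 CPM with vehicle and 693 and 697 CPM with IACS-70654. The changes of Il1rn, Stfa3 and Csf3r thus had the same direction there as in members.

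For vehicle against WT, 19 of 8966 genes differed in their change (0.212%), 9 with a higher change in Il1b-rich cells (0.1%) and 10 with a lower one (0.112%). Of the Ifitm and p200 families 3 of 8 had a smaller rise in Il1b-rich cells, Ifitm2, Ifitm3 and Ifitm6. The count was 0 to 2 without 1 library, 2 with plain totals and 0 in cells with at least 10 Il1b UMIs. Wfdc17 was 331 and 267 CPM in WT and 3783 and 3907 CPM with vehicle in Il1b-low cells, so its rise was larger there on the log2 scale (difference -1.19 ± 0.15, adjusted p = 6.4e-08), although its level stayed higher in Il1b-rich cells. Igkc, Ighm and Ebf1, 3 of the B cell markers, were called with a higher change in Il1b-rich cells. The B cell markers of Il1b-low cells summed to 127 to 5114 CPM, with the highest value in WT replicate 2, and their part in this result was not tested.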

How the data were processed

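RNA of single CD45+ Ter119- BM cells was measured with the Chromium 3′ v3.1 kit and CellPlex tags in 6 libraries. The authors aligned reads to mm10, counted UMIs and assigned cells to samples with Cell Ranger multi (7.2.0 in the file headers), and the deposited values are raw counts per gene and cell. The annotation is not given in the sources used here. The members and the gene lists were chosen with earlier results of these data known.

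Counts were summed per library over Il1b-rich and over Il1b-low cells. Sums were tested by edgeR (4.0.16, R 4.3.3) after filterByExpr and TMM scaling, the 6 Il1b-rich sums in 1 fit and the 12 sums with library as a block. A gene was called if it passed 0.01 in Benjamini-Hochberg adjusted p and 0.5 in absolute log2 change, and rule genes were never called. CPM used plain totals. Named genes were the 8 highest and the 8 lowest called changes with a mean of at least 100 CPM and no overlap of libraries (for Il1b-rich against Il1b-low, the same direction in 6 of 6 libraries), plus up to 4 members of each list with the lowest adjusted p. Ribosomal, mitochondrial, hemoglobin and immunoglobulin genes, Xist and genes named Gm or Rik were left out of the former. Other genes given with values, and all those given for IACS-70654 against WT and for differences of changes, were named after their values were seen. Alternatives were DESeq2 1.42.0, RLE factors, no filter on low counts, a replicate block, each library left out, 10 Il1b UMIs, members chosen after thinning, called doublets left out and, chosen after seeing the data, the 10% highest doublet scores left out and plain totals. Cells were handled with scanpy 1.11.5 (scrublet scores), pandas 2.3.3, scipy 1.17.1 and numpy 2.4.6 under Python 3.11.15. On simulated data with 200 genes changed by 1 on the log2 scale, edgeR recovered 51.5% for IACS-70654 against vehicle (7079 genes tested) and 60% for Il1b-rich against Il1b-low (8444 genes), and DESeq2 19% and 51%. For IACS-70654 against WT, edgeR recovered 17.5% and DESeq2 10%. The simulated spread was the common dispersion of each fit, 0.0024 for the 6 sums and 0.0010 for the 12 sums. The median dispersion of single genes was higher, at 0.0059 and 0.0047, so recovery in the measured data may be lower. In a chi-square test of the Il1b-low sums, replicate libraries differed by more than the sampling of independent UMIs. Since UMIs come grouped in cells, that test cannot show a difference beyond the sampling of cells.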

Additional observations from a re-analysis of the deposited data

Results flagged for a closer look

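Among 64 named genes called for IACS-70654 against vehicle in Il1b-rich cells, 13 changed by a different amount in Il1b-low cells, in edgeR's quasi-likelihood test of the difference with Benjamini-Hochberg adjustment. Over all genes tested the share was 2.89%. The named genes were chosen by their change in Il1b-rich cells, which is also 1 term of the difference, so nothing is read from the count. Values are the log2 change in Il1b-rich minus that in Il1b-low cells. A lower change was found for Elane (-2.10), Prtn3 (-1.44), Ctsg (-1.26) and Isg15 (-0.89). A higher change was found for 9 genes, namely Cybb (0.54), Stfa2 (0.61), Ccl6 (0.64), Slc16a3 (0.67), Hdc (0.74), Lyz2 (0.83), Anxa1 (0.84), Syne1 (1.26) and Ifitm6 (1.27). Ifitm6 was 642 and 529 CPM in WT, 772 and 704 CPM with vehicle, and 1482 and 1256 CPM with IACS-70654 in Il1b-rich and 1268 and 1288 CPM in WT, 3201 and 3137 CPM with vehicle, and 3001 and 2828 CPM with IACS-70654 in Il1b-low cells, so it was higher with IACS-70654 than with vehicle in the former and not in the latter. On plain library totals, where the median of all genes moved from 0.05 to -0.21, Cybb, Stfa2, Ccl6, Slc16a3 and Hdc kept their direction and were no longer called. In Il1b-low cells Prtn3 was 435 and 619 CPM in WT, 186 and 338 CPM with vehicle, and 1366 and 1465 CPM with IACS-70654.

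For vehicle against WT, 4 of 42 named genes differed, each with a lower change in Il1b-rich cells, against 0.212% of all genes tested. These genes were chosen in the same way, and nothing is read from the count. They were Mgst1 (-1.21), Wfdc17 (-1.19), Ifitm2 (-0.74) and Ifitm3 (-0.58). On plain totals Ifitm3 was no longer called. With at least 10 Il1b UMIs, 2 of all genes tested had a lower change, and 0 of the Ifitm and p200 families. The scale of this test moved with the TMM factors, which were 0.767 and 0.792 for the Il1b-low sums with vehicle and 1.07 and 1.05 for the Il1b-rich sums.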

How the results depend on the processing

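With cells of at least 10 Il1b UMIs, the genes called were 13 for vehicle against WT, 140 for IACS-70654 against vehicle, 42 for IACS-70654 against WT, and 32 and 7 for the differences of the IACS-70654 and the vehicle change between Il1b-rich and Il1b-low cells. That cut changed both which cells and how many were summed, and the cause was not tested. DESeq2 called 419 genes for IACS-70654 against vehicle and 78 for the difference of that change. The difference of the vehicle change, 19 genes, moved to 69 with members chosen after thinning, 34 without the 10% of cells with the highest doublet scores and 30 on plain library totals, and the cause was not tested. Leaving out each library in turn gave 81 to 149 genes for vehicle against WT, 460 to 785 for IACS-70654 against vehicle, 175 to 352 for IACS-70654 against WT, 1163 to 1382 for Il1b-rich against Il1b-low cells, and 136 to 245 and 4 to 53 for the 2 differences of changes. The lone library left in a group was then assumed to vary like the others. The low ends came without WT replicate 2 (81), vehicle replicate 2 (460), WT replicate 1 (175), vehicle replicate 1 (136) and either WT replicate (4). Without vehicle replicate 1 and IACS-70654 replicate 2, IACS-70654 against vehicle gave 462 and 476. The difference of that change gave 153 genes without IACS-70654 replicate 1, and the difference of the vehicle change gave 11 and 53 without vehicle replicates 1 and 2 and 41 and 42 without IACS-70654 replicates 1 and 2. IACS-70654 against WT gave 212 genes without WT replicate 2. Group means of the share of Il1b-rich cells, 7.31% (WT), 20.0% (vehicle) and 23.7% (IACS-70654), were 12.2% (WT), 25.3% (vehicle), 24.5% (IACS-70654) after thinning, 1.74% (WT), 6.42% (vehicle), 6.88% (IACS-70654) at 10 UMIs and 1.87% (WT), 7.66% (vehicle), 7.14% (IACS-70654) of all kept cells, and 21.1% (vehicle) without the highest doublet scores. Leaving out 1 library gave 6.74% to 7.89%, 19.6% to 20.3% and 23.1% to 24.3%. For IACS-70654 against vehicle, 4 azurophil genes turned direction after thinning and without IACS-70654 replicate 2, respectively, Ctsg at -0.066 and -0.085, Prtn3 at -0.26 and -0.30, Elane at -0.26 and -0.29 and Mpo at -0.32 and -0.11. Over the left-out libraries they reached 1.62, 1.24, 1.15 and 0.71 without IACS-70654 replicate 1. Of the other values of named genes under the alternatives, 3499 kept their direction and side of the threshold, 351 lost their call and 19 gained one. Of 105 group means of a share of members with a UMI of a gene, 98 moved by at least the SD of the libraries without thinning. The replicate numbers did not pair the libraries (correlations of 0.0086, 0.041 and 0.0062 over 1653 genes). With the replicate number as a block, 124, 654, 301, 1422, 267 and 17 genes were called in the order above, and the numbers are within 1.5 times those without it. Members of WT summed to 197826 and 162649 UMIs against 972246 or more in the other libraries, which limits what comparisons with WT could call.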
